A study of Caenorhabditis elegans with 9 samples.

Results

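The ceh genes (C. elegans homeobox) are homeobox genes of the nematode that were named by number, and 60 of them were followed here on whole-genome arrays of L1 larvae, the first larval stage. They were chosen as the probe sets whose only gene symbol in the platform annotation is ceh- followed by a number. That gave 74 probe sets for 60 of the 17118 genes that had a probe set with a single symbol. Of the 60 genes, 48 had 1 probe set, 10 had 2, and ceh-21 and ceh-39 had 3 each. Each gene is represented by its probe set of highest mean over the 9 arrays. The RefSeq gene table holds 65 symbols of this form, and a gene such as ceh-63, whose probe set is shared with a neighbouring gene in the annotation, was not a member. The RefSeq table lists 1 member, ceh-85, as a pseudogene.

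A homeobox encodes the homeodomain, a helix-turn-helix fold with which these proteins bind DNA and turn other genes on or off. In C. elegans many homeodomain proteins act as terminal selectors, which switch on the genes that give a neuron class its identity and keep them on, and others pattern muscle, epidermis and pharynx in the embryo. Each is typically made in a few cells, so that RNA of the whole larva averages those cells with all others.

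The study compared 3 genotypes with 3 arrays each, labelled as biological replicates. The first carries ogt-1(ok430), a loss of OGT-1, the transferase that puts single O-GlcNAc sugars on proteins inside the cell. The second carries oga-1(ok1207), a loss of OGA-1, the hydrolase that takes them off again. The third is wild type. In all groups the eggs were freed by bleaching, the larvae hatched without food and were collected after 48 h, and they then ate OP50 bacteria for 3 h on plates before RNA was taken. The values are deposited log2 signals, and precision is limited by how few arrays each group has. Whether the replicates came from separate cultures is stated no further, so the p-values measure the spread between these samples.

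The deleted genes were examined before the comparisons. The brightest oga-1 probe set read 8.63, 8.74 and 8.88 in the oga-1 mutant, against 9.31, 9.54 and 9.63 in wild type, a log2 difference of -0.75 ± 0.10 (SE, limma adjusted p = 0.0181). The other oga-1 probe sets were lower too but not called (-0.58 and -0.30, limma adjusted p = 0.0648 and 0.373). The ogt-1 signal was higher, not lower, in the arrays labelled ogt-1 mutant. Its brightest probe set read 11.43, 11.43 and 11.17 there, against 10.87, 10.76 and 10.94 in wild type, which was not called (0.48 ± 0.17 SE, limma adjusted p = 0.187). Its dimmer probe set, which was called, read 9.97, 9.99 and 9.69 in the mutant, against 9.32, 9.10 and 9.12 in wild type (0.70 ± 0.11 SE, limma adjusted p = 0.0141). No source used here gives the position of these probes relative to the ok430 deletion. They therefore do not check that label, and each direction given for the ogt-1 mutant rests on the label alone. The array medians over all 22548 tested probe sets lay between 7.42 and 7.47. Of the 60 ceh genes, 17 (28.3%) were lowest on ogt-1 mutant array 1, where 17.3% of all probe sets were lowest. Oga-1 mutant array 3 held the highest signal of 16 ceh genes (26.7%, against 21.2% of all probe sets), and wild type array 1 that of 13 (21.7%, against 11.6%).

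The ceh genes gave dim to bright signals, as the plot of every array shows. A signal depends on the probe sequences as well as on the RNA, so it ranks probe sets by brightness and not genes by transcript number. Of the 60 genes, 27 had a mean no lower than the middle value of all probe set means (7.45), 12 lay below the first quartile (5.67) and 7 above the third (9.36). Among the brightest was ceh-20, a relative of vertebrate Pbx whose protein binds DNA together with Hox proteins. It read 11.08, 11.24 and 11.41 on ogt-1 mutant arrays, 11.41, 11.13 and 11.35 on oga-1 mutant arrays and 11.09, 11.36 and 11.46 in wild type. Close to it lay ceh-38, a Onecut gene, with 11.11, 11.19 and 11.34 on ogt-1 mutant arrays, 11.04, 11.21 and 10.98 on oga-1 mutant arrays and 11.21, 11.21 and 11.34 in wild type. For both genes the 3 genotypes overlapped. The other bright members were the sine oculis-class genes ceh-32 (mean 10.29) and ceh-34 (10.05), ceh-100 (9.95), the Otx gene ceh-37 (9.92), the POU gene ceh-18 (9.48) and the paired-like gene ceh-10 (9.19). At the other end, ceh-7 averaged 3.93, ceh-85 4.52, ceh-5 4.67 and ceh-49 4.76. Background was not assessed, so a difference at such a signal may be understated.

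**Figure D1:**
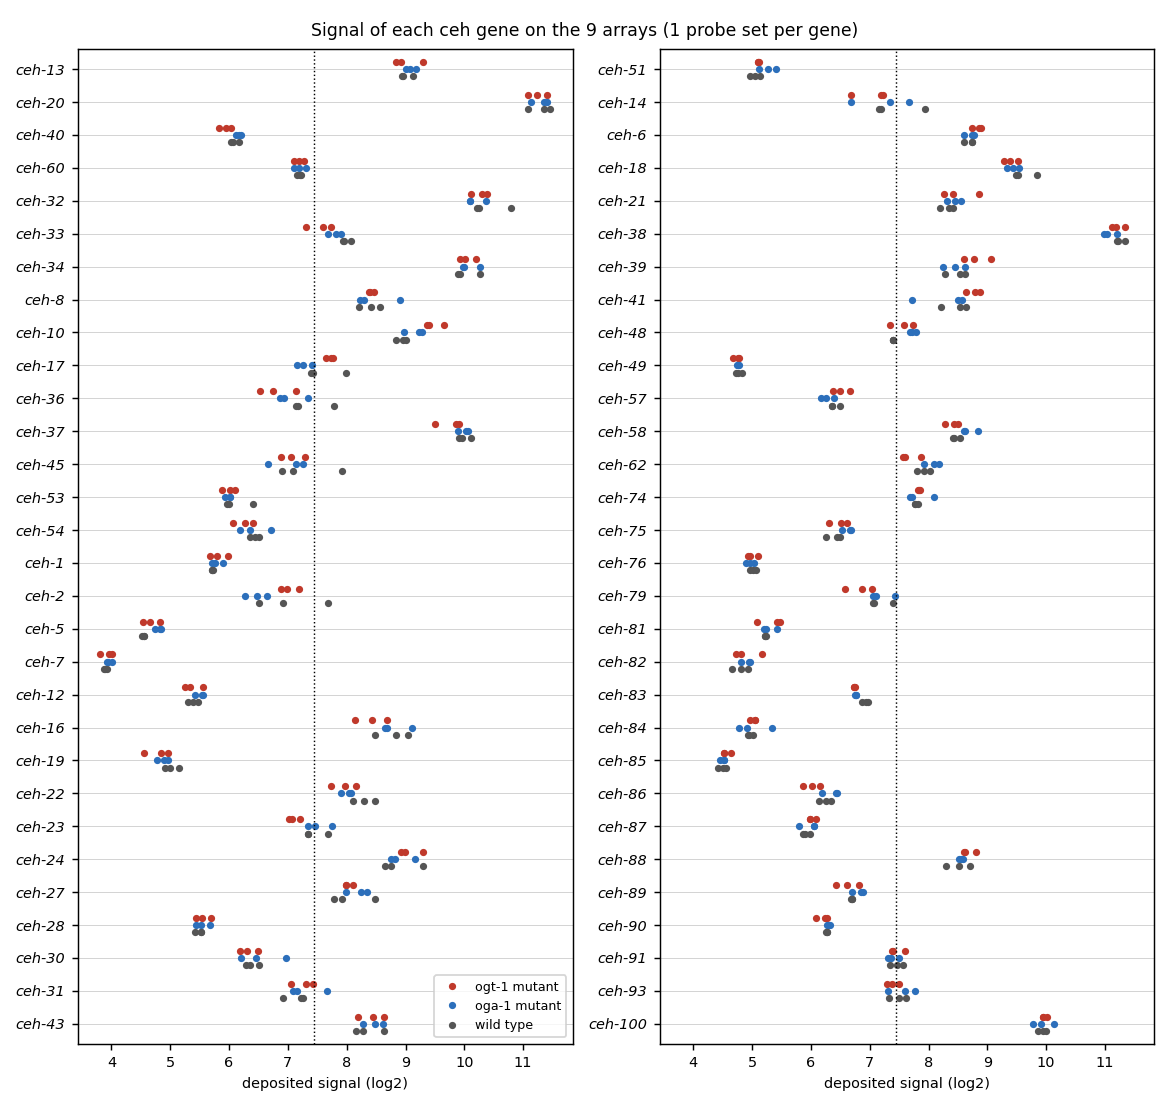
Deposited log2 signal of the 60 ceh genes, 1 probe set per gene, on each of the 9 arrays (points; red, ogt-1 mutant; blue, oga-1 mutant; grey, wild type). The dotted line is the median of all probe set means, 7.45. Genes run by class from ceh-13 to ceh-100; ceh-20 and ceh-38 lie furthest right and ceh-7 furthest left, and the genotypes overlap for many genes.

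Arrays of the same genotype differed about as much for these genes as for all probe sets. The median standard deviation within genotypes was 0.146 over the ceh genes and 0.139 over all probe sets. It was smallest for ceh-83 (0.0293) and largest for the LIM homeobox gene ceh-14 (0.423), followed by ceh-45 (0.381) and ceh-2 (0.368). For ceh-14, ceh-45 and ceh-2 wild type array 1 was the highest of the 9, with 7.93, 7.92 and 7.68. Of the 60 probe sets, 14 (23.3%) had exactly the same deposited value on 2 or more arrays, against 37.5% of all probe sets, and whether such ties bear on the smallest spreads was not tested. With 3 arrays a genotype, the 95% interval of a difference extended a median of 0.255 log2 units to each side, from 0.155 to 0.618 over the 60 genes.

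The first comparison, of the ogt-1 mutant with wild type, asks how the larvae's RNA differs when the sugar cannot be put on. Among the 60 ceh genes, only ceh-10 rose and none fell at an adjusted p under 0.05, where 2.59% of all probe sets were called. At an unadjusted p under 0.05 there were 8 genes (13.3%), 2 higher and 6 lower, against 15.8% of all probe sets. The arrays of the 2 genotypes did not overlap for 7 genes. All mutant arrays lay above wild type for 2 of them and below for 5, against 9.98% and 11.0% of all probe sets. The median difference was 0.00 over the ceh genes and 0.00 over all probe sets, the extremes were -0.56 and 0.54, and no ceh gene differed by more than 1.

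CEH-10 is a paired-like homeodomain protein related to vertebrate Chx10/Vsx, needed for the migration of the CAN neurons and, together with the LIM homeodomain protein TTX-3, for the identity of the AIY interneurons. Its signal was 9.37, 9.39 and 9.65 on ogt-1 mutant arrays, 8.98, 9.23 and 9.28 on oga-1 mutant arrays and 8.95, 8.83 and 9.01 in wild type. All 3 ogt-1 mutant arrays lay above all 6 others. The difference from wild type was 0.54 ± 0.11 on the log2 scale (SE, n = 3 each, 95% interval 0.29 to 0.79), a fold of 1.46, with a limma adjusted p of 0.0367. The oga-1 mutant differed from wild type by 0.23 (limma adjusted p = 0.463) and the ogt-1 mutant from the oga-1 mutant by 0.31 (limma adjusted p = 0.158). The call was lost in 7 of the 9 fits that left out an array, among them every fit without an ogt-1 mutant or wild type array. It was kept without oga-1 mutant array 1 or 3, which are not part of this comparison. Over all 9 fits the difference ran from 0.45 to 0.59 (limma adjusted p = 0.0320 to 0.153). The call was lost too without the 3 arrays that hold the extremes above, at a difference of 0.60 (limma adjusted p = 0.0994).

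The mean gap between the 3′ and 5′ control probe sets of actin, GAPDH and ubiquitin was 1.43 ± 0.106 in the ogt-1 mutant, 1.22 ± 0.0624 in the oga-1 mutant and 1.30 ± 0.0434 in wild type (SD, n = 3 each). The ogt-1 mutant and wild type differed in it by 0.135 (two-sided exact permutation p = 0.2; the smallest possible with 3 against 3 is 0.1). With this gap as a covariate ceh-10 differed by 0.44 ± 0.15 (SE, limma adjusted p = 0.443), and 49 probe sets in all were called, against 584 without it. The gap's part in the result was not tested further. The pan-neuronal marker genes, 10 of 10 measured and all brighter than the median, averaged 11.10 to 11.15 in the ogt-1 mutant and 10.97 to 11.14 in wild type, a difference of 0.08 (exact permutation p = 0.2). None of them was called. In whole larvae, a change in the number of cells of a type and a change in RNA per cell cannot be told apart.

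TTX-3 and CEH-23 act with CEH-10 in the AIY neuron: TTX-3 is its partner, and CEH-23 is a homeodomain protein that works downstream of both. The ttx-3 signal was 8.47, 8.51 and 8.49 in the ogt-1 mutant, against 8.47, 8.29 and 8.26 in wild type, a difference of 0.15 (limma adjusted p = 0.539). That of ceh-23 was 7.01, 7.21 and 7.07 on ogt-1 mutant arrays, 7.35, 7.46 and 7.76 on oga-1 mutant arrays and 7.35, 7.68 and 7.35 in wild type. The ogt-1 mutant thus lay below both other genotypes on every array for ceh-23, with differences of -0.36 ± 0.13 from wild type (limma adjusted p = 0.210) and -0.42 ± 0.13 from the oga-1 mutant (limma adjusted p = 0.110). Neither gene passed the test.

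The other paired-like genes included the pair of Otx genes, which lie next to each other on chromosome X. CEH-36 gives the ASE and AWC sensory neurons their identity, and CEH-37 does so for AWB and also binds telomeres. The ceh-36 signal was 6.53, 6.75 and 7.13 on ogt-1 mutant arrays, 6.86, 6.94 and 7.33 on oga-1 mutant arrays and 7.17, 7.14 and 7.78 in wild type. The ogt-1 mutant did not overlap wild type, but the difference of -0.56 ± 0.21 was not called (limma adjusted p = 0.223). For ceh-37 the difference from wild type was -0.24 at both its probe sets (limma adjusted p = 0.369 and 0.243). The other paired-like member among the named genes, ceh-17, a Phox2 relative of the ALA and SIA neurons, read 7.73, 7.77 and 7.65 on ogt-1 mutant arrays, 7.41, 7.26 and 7.16 on oga-1 mutant arrays and 7.98, 7.40 and 7.43 in wild type. The 2 mutants did not overlap, with a difference of 0.44 ± 0.15 between them (limma adjusted p = 0.135), while wild type array 1 was the highest of all 9. Without that array, which is not part of the comparison of the mutants, the limma adjusted p was 0.0342 at the same difference. In that fit the calls between the mutants over all probe sets rose from 652 to 803. Over the 8 paired-like genes, 3 were higher and 5 lower in each mutant than in wild type.

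**Figure D2:**
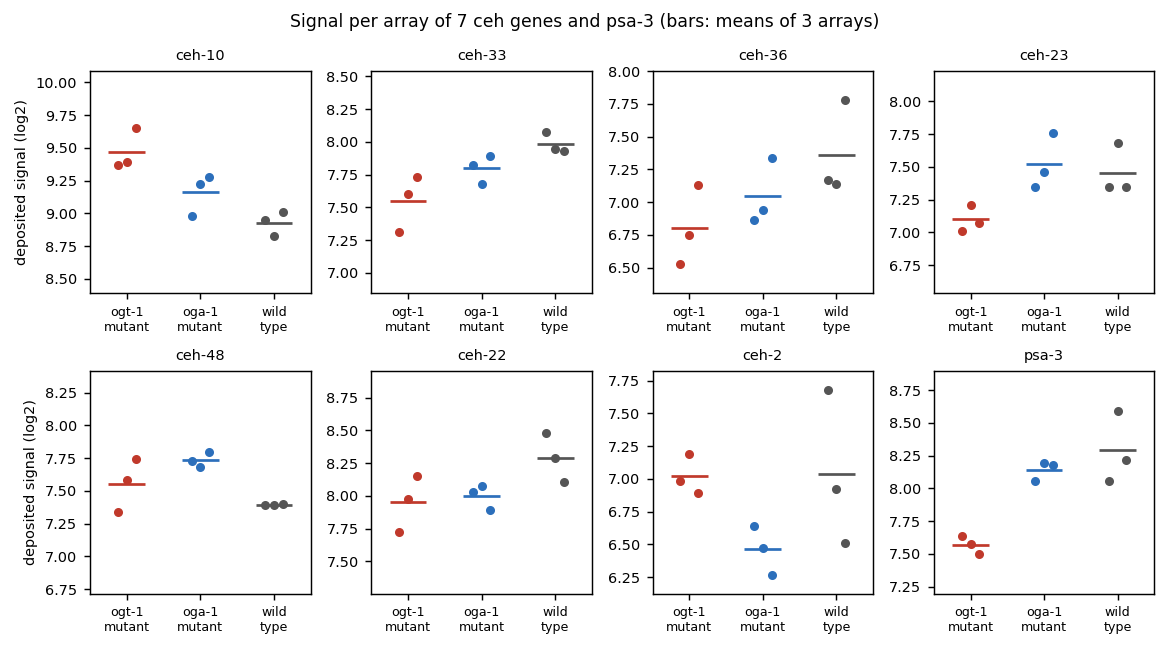
Log2 signal on each array (points) and mean of 3 arrays (bars) for 7 ceh genes and psa-3, with the ogt-1 mutant, the oga-1 mutant and wild type from left to right in each panel and an equal axis length in all. The ogt-1 mutant points of ceh-10 (9.37 to 9.65) lie above and those of psa-3 (7.50 to 7.64) below all others, and wild type array 1 stands apart for ceh-2 at 7.68.

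The sine oculis class encodes homeodomain proteins known from eye and head development in other animals. In C. elegans ceh-32 shapes the head and ceh-34 gives pharyngeal neurons their identity, and ceh-33 is the neighbour of ceh-34 on chromosome V. The ceh-33 signal was 7.31, 7.60 and 7.73 on ogt-1 mutant arrays, 7.82, 7.68 and 7.90 on oga-1 mutant arrays and 8.08, 7.95 and 7.93 in wild type. Both mutants lay below wild type on every array. The difference for the ogt-1 mutant was -0.44 ± 0.11 (limma adjusted p = 0.0846), which missed the threshold and shrank to -0.27 without the 3 arrays that hold the extremes, and for the oga-1 mutant it was -0.19 (limma adjusted p = 0.567). Its neighbour ceh-34 read 9.93, 10.01 and 10.20 in the ogt-1 mutant, against 10.27, 9.93 and 9.89 in wild type, a difference of 0.02 (95% interval -0.27 to 0.30). For ceh-32 it was -0.14 (95% interval -0.49 to 0.20).

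Ceh-13, the labial-class Hox gene and the only Hox gene named ceh, read 8.83, 8.92 and 9.30 on ogt-1 mutant arrays, 9.17, 9.07 and 9.01 on oga-1 mutant arrays and 8.95, 8.96 and 9.12 in wild type. The genotypes overlapped, and the interval of the ogt-1 mutant's difference ran from -0.27 to 0.28. The PBC genes encode cofactors of Hox proteins. Their differences between the ogt-1 mutant and wild type were -0.06 for ceh-20, -0.15 for ceh-40 and -0.01 for ceh-60, which acts in the intestine on vitellogenin genes. For ceh-40, whose signal was dim, the mutants did not overlap (5.83, 5.96 and 6.04 in the ogt-1 mutant, against 6.12, 6.16 and 6.20 in the oga-1 mutant), and their difference of -0.22 was not called (limma adjusted p = 0.183). The mean intestinal marker signal, over 4 of 4 genes, was 10.38 to 10.78 in the ogt-1 mutant, against 10.87 to 11.04 in wild type (difference -0.38, exact permutation p = 0.1, the smallest possible). Its part in these values was not tested.

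Of the POU genes, which encode a second DNA-binding domain beside the homeodomain, ceh-6 is needed for the excretory cell and ceh-18 for the gonadal sheath. Ceh-6 read 8.86, 8.75 and 8.89 in the ogt-1 mutant, against 8.75, 8.59 and 8.75 in wild type, which did not overlap by a narrow margin (difference 0.14, limma adjusted p = 0.498). Ceh-18 differed by -0.23 (limma adjusted p = 0.384). The LIM gene ceh-14, which the AFD thermosensory neuron needs, differed by -0.39 with an interval from -1.01 to 0.23, the widest of the 60. Without wild type array 1 that difference was -0.14.

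Among the 16 genes of the Antennapedia-class NK group and its relatives, 9 were higher and 7 lower in the ogt-1 mutant than in wild type, and none was called. The one with the highest mean signal was ceh-24, an NK-2 gene, at 8.93, 8.99 and 9.29 on ogt-1 mutant arrays, 8.83, 8.76 and 9.17 on oga-1 mutant arrays and 9.30, 8.66 and 8.75 in wild type. CEH-22, related to vertebrate Nkx2-5, turns on pharyngeal muscle genes. Its signal was 7.73, 7.97 and 8.16 on ogt-1 mutant arrays, 8.03, 8.07 and 7.90 on oga-1 mutant arrays and 8.48, 8.29 and 8.10 in wild type. The oga-1 mutant lay below wild type on every array and the ogt-1 mutant overlapped it, with differences of -0.29 (limma adjusted p = 0.428) and -0.34 (limma adjusted p = 0.231). The pharyngeal muscle markers, 4 of 4 measured, averaged 11.88 to 12.03 in the ogt-1 mutant, 11.67 to 11.98 in the oga-1 mutant and 11.57 to 12.27 in wild type, all overlapping.

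**Figure D3:**
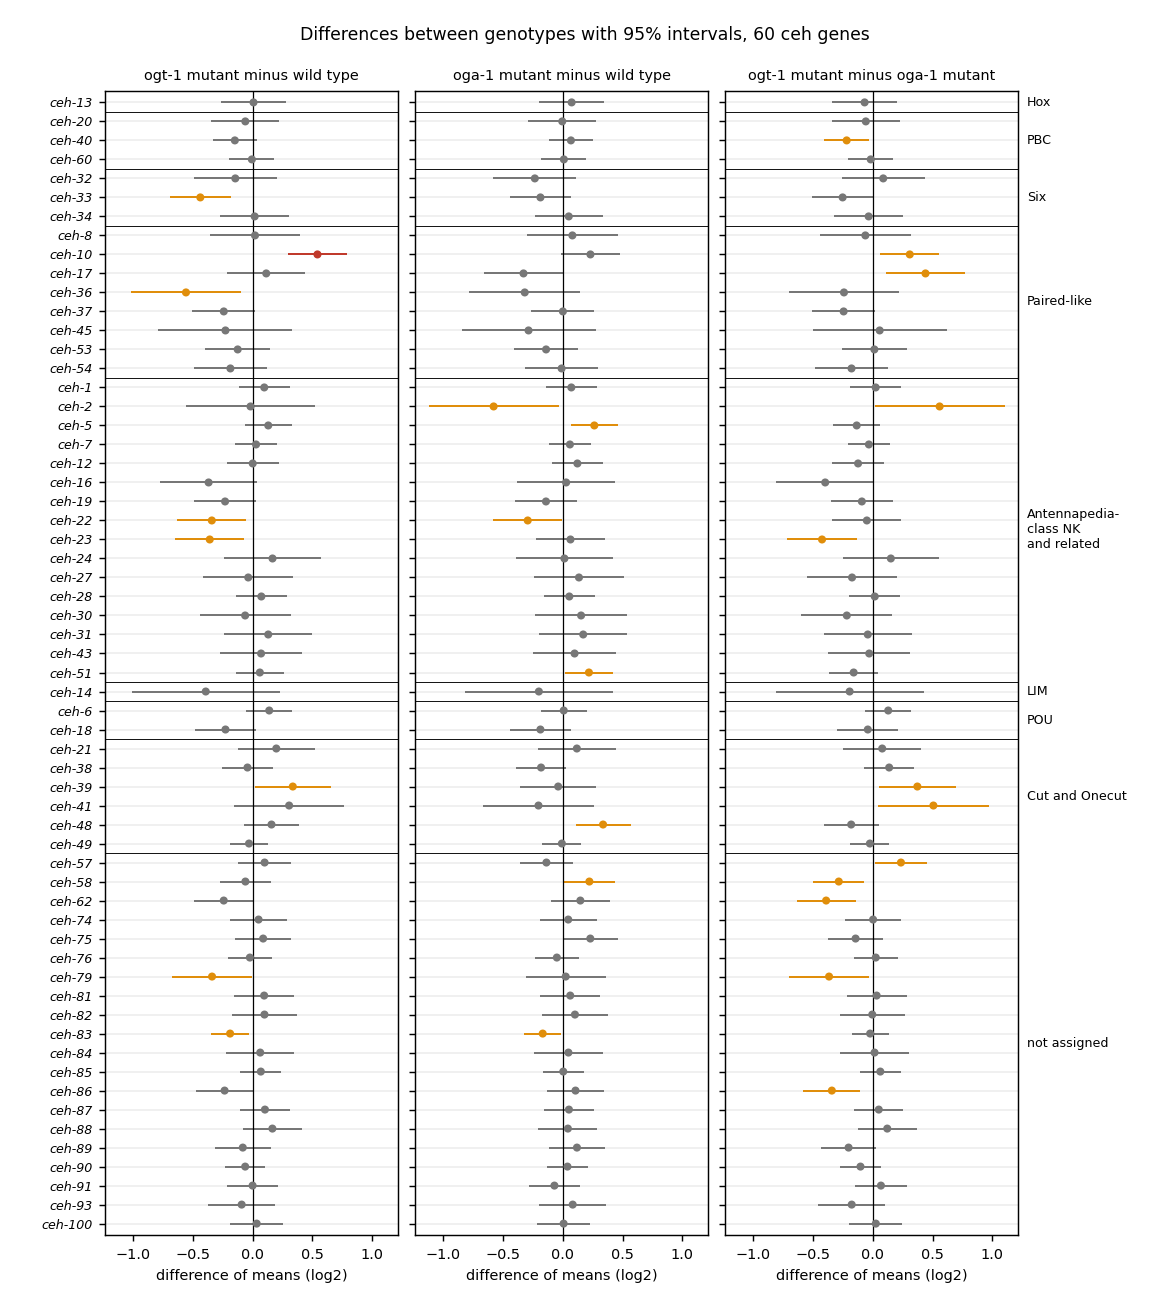
Differences of genotype means on the log2 scale (points) with 95% intervals (lines) for the 60 ceh genes in 3 comparisons, grouped by class on the right. Red marks an adjusted p under 0.05 over all 22548 probe sets, orange an unadjusted p under 0.05. Ceh-10 at 0.54 in the left panel is the single red point, and 8, 7 and 12 genes pass the unadjusted threshold from left to right.

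The second comparison sets the oga-1 mutant, which cannot remove the sugar, against wild type. No ceh gene was called by limma, where 0.497% of all probe sets were, and the lowest adjusted p was 0.254. At an unadjusted p under 0.05 there were 7 genes (11.7%), 4 higher and 3 lower, against 11.5% of all probe sets. The genotypes did not overlap for 10 genes, 7 above wild type and 3 below, against 9.41% and 6.66% of all probe sets. Of the 60 genes 39 were higher and 21 lower, with a median difference of 0.04 over the ceh genes and 0.01 over all probe sets, of which 53.5% were higher.

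The smallest p belonged to ceh-48, a Onecut gene that turns on genes shared by all neurons. It read 7.73, 7.68 and 7.79 in the oga-1 mutant and 7.34, 7.58 and 7.74 in the ogt-1 mutant, against 7.39, 7.40 and 7.40 in wild type. The oga-1 mutant lay above wild type on every array, by 0.34 ± 0.10 (95% interval 0.11 to 0.57, limma adjusted p = 0.254). The neuronal marker mean was 10.93 to 11.00 in the oga-1 mutant, against 10.97 to 11.14 in wild type (difference -0.08, exact permutation p = 0.3). In the ogt-1 mutant it ran from 11.10 to 11.15, so the mutants did not overlap (difference 0.16, exact permutation p = 0.1, the smallest possible). A link between these markers and ceh-48 was not tested. Dim ceh-5 read 4.83, 4.74 and 4.85 in the oga-1 mutant, against 4.55, 4.55 and 4.52 in wild type, a separation of 0.26 (limma adjusted p = 0.301).

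CEH-2, related to vertebrate EMX, acts in the pharynx. Its signal was 6.64, 6.47 and 6.27 in the oga-1 mutant and 6.98, 7.19 and 6.89 in the ogt-1 mutant, against 7.68, 6.92 and 6.51 in wild type. The -0.58 ± 0.24 of the oga-1 mutant was the lowest difference of any ceh gene in this comparison, but the arrays overlapped wild type (limma adjusted p = 0.407), and without wild type array 1 the value was -0.26. Ceh-51, which acts in the embryonic mesoderm, and ceh-58 were each higher by 0.22 (limma adjusted p = 0.401 and 0.413). Ceh-83 was the tightest of all: 6.75, 6.73 and 6.73 in the ogt-1 mutant, then 6.76, 6.75 and 6.76 in the oga-1 mutant, against 6.94, 6.87 and 6.97 in wild type. Both mutants lay below wild type without overlap, with differences of -0.19 for the ogt-1 mutant and -0.17 for the oga-1 mutant (limma adjusted p = 0.221 and 0.405). The 2 comparisons share the wild-type arrays. Its neighbours on chromosome II, ceh-81 and ceh-82, each differed by 0.10 between the ogt-1 mutant and wild type, with overlapping arrays.

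**Figure D4:**
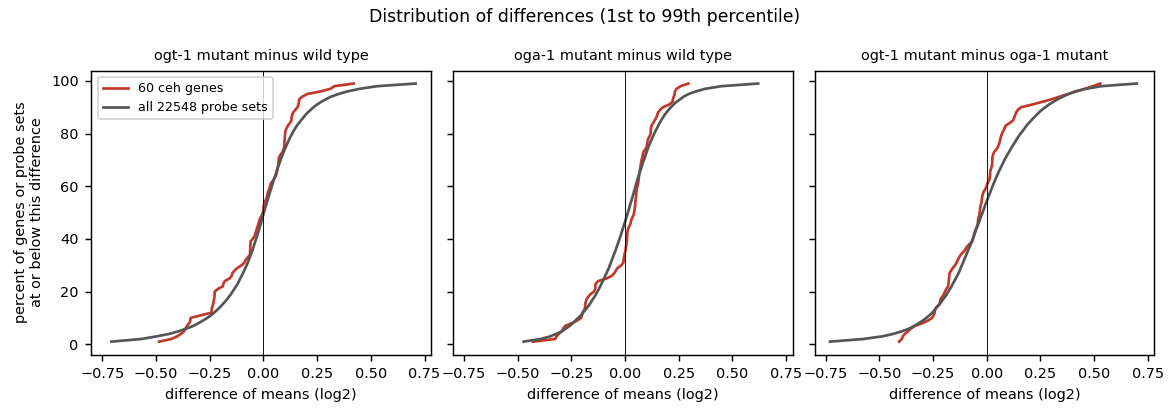
Percent of genes or probe sets (vertical axis) at or below each difference of means on the log2 scale (horizontal axis), from the 1st to the 99th percentile, for the 60 ceh genes (red) and all 22548 probe sets (grey) in 3 comparisons. The red curves end sooner than the grey ones on both sides in all 3 panels and run apart from them in places. At the 10th percentile the left panel gives -0.34 for the ceh genes and -0.26 for all probe sets. Its 90th percentiles are 0.16 and 0.23. In the left panel the red curve runs from -0.49 to 0.42, and the extremes of the ceh genes beyond it are -0.56 and 0.54.

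Between the 2 mutants, no ceh gene was called at its brightest probe set, where limma called 2.89% of all probe sets. The lowest adjusted p was 0.0893. At an unadjusted p under 0.05 there were 12 genes (20%), 6 in each direction, against 20.5% of all probe sets, and the mutants did not overlap for 12 genes, 5 with the ogt-1 mutant above and 7 with it below, against 10.3% and 12.6% of all probe sets. The median difference was -0.03 over the ceh genes and -0.02 over all probe sets. The lowest p belonged to ceh-62, with 7.60, 7.87 and 7.56 on ogt-1 mutant arrays, 8.17, 8.09 and 7.92 on oga-1 mutant arrays and 7.80, 8.02 and 7.92 in wild type. The means of the mutants lay to either side of the wild-type mean, with overlap, and the mutants differed by -0.39 ± 0.11 (limma adjusted p = 0.0893). Dim ceh-86 read 5.86, 6.01 and 6.16 on ogt-1 mutant arrays, 6.20, 6.42 and 6.45 on oga-1 mutant arrays and 6.14, 6.35 and 6.25 in wild type (-0.34 between the mutants, limma adjusted p = 0.115). Ceh-2 differed by 0.56 (limma adjusted p = 0.232), the highest of any ceh gene in this comparison.

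The Onecut genes hold a cut domain beside the homeodomain. Of the 6 in the list, ceh-41, ceh-21 and ceh-39 lie almost side by side on chromosome X, with 1 other gene between ceh-21 and ceh-39, and all had several probe sets. CEH-39 is an X signal element: it represses the sex-determining gene xol-1 in the early embryo and so helps to count X chromosomes. The brightest ceh-39 probe set read 8.61, 8.77 and 9.07 on ogt-1 mutant arrays, 8.45, 8.25 and 8.63 on oga-1 mutant arrays and 8.28, 8.62 and 8.54 in wild type. The ogt-1 mutant overlapped each other genotype there by a small margin, and the oga-1 mutant and wild type overlapped widely. The difference was 0.34 ± 0.14 between the ogt-1 mutant and wild type (limma adjusted p = 0.288) and 0.37 between the mutants (limma adjusted p = 0.184).

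The third and dimmest ceh-39 probe set separated all 3 genotypes. It read 7.86, 7.90 and 8.14 on ogt-1 mutant arrays, 7.05, 7.14 and 7.29 on oga-1 mutant arrays and 7.38, 7.54 and 7.69 in wild type. The ogt-1 mutant was higher than the oga-1 mutant by 0.81 ± 0.11 (SE, n = 3 each, 95% interval 0.55 to 1.06, limma adjusted p = 0.00788). This call held in 15 of 16 alternative settings (0.72 to 0.92) and was lost with the control gap as a covariate (0.67 ± 0.20 SE, limma adjusted p = 0.833). The mutants did not overlap in that gap (difference 0.217, exact permutation p = 0.1), so that fit could not cleanly tell gap and genotype apart. Against wild type the same probe set gave 0.43 for the ogt-1 mutant (limma adjusted p = 0.0876) and -0.38 for the oga-1 mutant (limma adjusted p = 0.246). The probe sets of ceh-39 thus differed by up to 0.503 in their difference between the mutants and by up to 0.362 in that between the oga-1 mutant and wild type, and no source used here says which part of the transcript each covers. The mean of the 3 probe sets differed between the mutants by 0.49 (limma adjusted p = 0.0483).

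The neighbours of ceh-39 were higher in the ogt-1 mutant as well, at values that were not called. Ceh-41 read 8.63, 8.88 and 8.79 on ogt-1 mutant arrays, 8.56, 8.49 and 7.72 on oga-1 mutant arrays and 8.21, 8.54 and 8.64 in wild type at its brightest probe set. The dimmest ceh-21 probe set read 6.68, 6.85 and 6.77 on ogt-1 mutant arrays, 6.31, 6.46 and 6.76 on oga-1 mutant arrays and 6.31, 6.26 and 6.36 in wild type, and the 0.46 between ogt-1 mutant and wild type had a limma adjusted p of 0.0694. All 8 probe sets of the 3 genes were higher in the ogt-1 mutant than in wild type (0.20 to 0.46), 6 of them at an unadjusted p under 0.05 and 0 called by limma, where 15.8% and 2.59% of all probe sets were. All 8 were also higher than in the oga-1 mutant (0.07 to 0.81), 6 at an unadjusted p under 0.05 and 1 called, where 20.5% and 2.89% of all probe sets were. Both comparisons share the ogt-1 mutant arrays. Between the oga-1 mutant and wild type 3 were higher and 5 lower. These genes were put together after their values had been seen, so the group has no test, and their related sequences were not checked for shared probes beyond the probe sets' own marks, of which they carry none. The Onecut genes elsewhere in the genome gave other values. Between the ogt-1 mutant and wild type ceh-38 differed by -0.04, ceh-48 by 0.16 and the dim ceh-49 by -0.03.

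**Figure D5:**
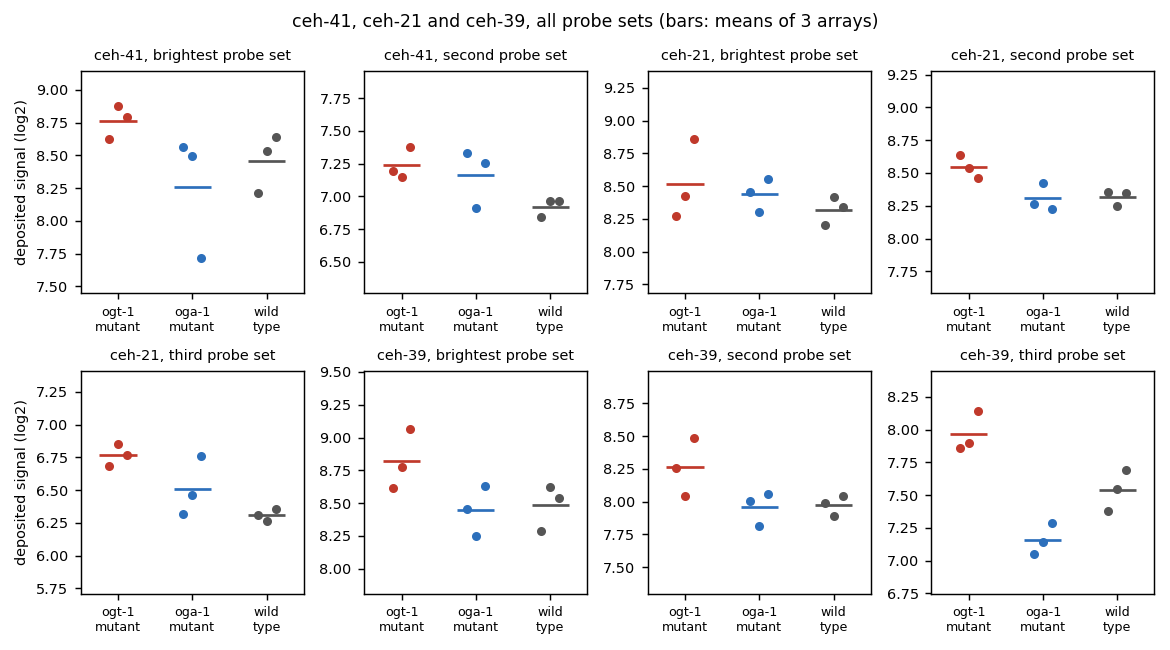
Log2 signal on each array (points) and mean of 3 arrays (bars) for the 8 probe sets of ceh-41, ceh-21 and ceh-39, with the ogt-1 mutant, the oga-1 mutant and wild type from left to right in each panel and an equal axis length in all. The ogt-1 mutant has the highest mean in all 8 panels, and the third ceh-39 probe set separates the 3 genotypes (7.86 to 8.14 in the ogt-1 mutant, 7.05 to 7.29 in the oga-1 mutant and 7.38 to 7.69 in wild type).

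Where a gene had several probe sets, these gave differences between the ogt-1 mutant and wild type that lay 0.00 to 0.33 apart, the widest for ceh-14. Between the oga-1 mutant and wild type the widest gap was 0.446, for ceh-41, whose probe sets gave -0.20 and 0.24. For ceh-20 the brighter probe set gave 0.00 in that comparison and the dimmer -0.28 (limma adjusted p = 0.355). Of the 60 representative probe sets, 13 carried a mark for possible cross-hybridisation with related sequences, among them ceh-20 and ceh-37, while ceh-10 and the probe sets of ceh-39 did not.

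The 60 genes lie on all chromosomes, 17 on X, 13 on II, 12 on V, 7 each on I and III and 4 on IV. For ceh-36 and ceh-37 all 3 probe sets were lower in the ogt-1 mutant than in wild type (-0.24 to -0.56). Ceh-33 and ceh-34 (-0.44 and 0.02) and ceh-30 and ceh-31 (-0.06 and 0.13) gave values of either sign. Ceh-89 and ceh-90, with 1 gene between them on chromosome X, differed by -0.08 and -0.06 between the ogt-1 mutant and wild type, by 0.12 and 0.04 between the oga-1 mutant and wild type and by -0.20 and -0.10 between the mutants, and neither was called.

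Homeobox genes with other names served as a comparison, 38 of a list of 39 being measured. In the ogt-1 mutant 1 of them, psa-3, fell against wild type and none rose, where 2.59% of all probe sets were called. It alone was also called between the mutants, where 2.89% were, and was lower in the ogt-1 mutant. Both comparisons share the ogt-1 mutant arrays. PSA-3 is a Meis-related homeodomain protein that acts with the Hox protein NOB-1 and with CEH-20 in the asymmetric division of the T cell of the tail. Its signal was 7.64, 7.57 and 7.50 on ogt-1 mutant arrays, 8.06, 8.19 and 8.18 on oga-1 mutant arrays and 8.06, 8.59 and 8.22 in wild type. The ogt-1 mutant lay below all other arrays. The differences were -0.72 ± 0.13 from wild type (SE, n = 3 each, limma adjusted p = 0.0215) and -0.57 from the oga-1 mutant (limma adjusted p = 0.0453). The first call held in 4 of the 9 fits that left out an array, and over the 9 the difference ran from -0.57 to -0.83. It was lost without any 1 of the ogt-1 mutant arrays and without wild type array 2 or 3. Of the fits that kept it, all but that without wild type array 1 left out an oga-1 mutant array, which is not part of this comparison. The second call held in 2 of 9, without wild type array 1 or 2, which are not part of that comparison. With the control gap as a covariate both were lost, at -0.69 (limma adjusted p = 0.303) and -0.52 (limma adjusted p = 1.00). Its partners did not pass the test. For nob-1 the difference between the ogt-1 mutant and wild type was -0.13, beside the -0.06 of ceh-20.

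In the oga-1 mutant 0 of the 38 were called against wild type by limma, where 0.497% of all probe sets were, with 5 at an unadjusted p under 0.05 against 11.5% of all probe sets and a lowest adjusted p of 0.363, for ttx-3 (difference 0.26). The AFD gene ttx-1, an Otx relative of ceh-36 and ceh-37, read 9.34, 9.28 and 8.59 in the oga-1 mutant, against 9.51, 9.57 and 9.46 in wild type, with 1 of the mutant arrays well below the others (difference -0.44, limma adjusted p = 0.389). Without that array, array 3, the difference was -0.20. Dve-1, which acts in the mitochondrial stress response, gave -0.35 for the ogt-1 mutant against wild type and -0.34 for the oga-1 mutant (limma adjusted p = 0.256 and 0.404). Its other probe set gave -0.31 and -0.03 (limma adjusted p = 0.0722 and 0.899). Hmbx-1 separated the mutants, with 6.58, 6.57 and 6.64 in the ogt-1 mutant, against 6.78, 6.85 and 6.84 in the oga-1 mutant (limma adjusted p = 0.115). By share at an unadjusted p under 0.05, 5 of 38 (13.2%) passed in each of the 3 comparisons. Of all probe sets 15.8% passed between the ogt-1 mutant and wild type, 11.5% between the oga-1 mutant and wild type and 20.5% between the mutants.

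Markers of other tissues and stages are given for the whole lists. The body wall muscle markers, 4 of 4 measured, averaged 12.35 to 12.50 in the ogt-1 mutant, 12.55 to 12.74 in the oga-1 mutant and 12.22 to 12.43 in wild type. The oga-1 mutant did not overlap either other genotype (exact permutation p = 0.1 for both, the smallest possible; 0.31 against wild type). The epidermal markers (4 of 4) averaged 8.19 to 8.48 in the ogt-1 mutant, 8.38 to 8.70 in the oga-1 mutant and 8.35 to 8.47 in wild type. Of the markers of the early embryo 5 of 7 were measured and 1 was brighter than the median, and of those of adults and oocytes 10 of 11 were measured and 2 were brighter. None of the markers of these 7 lists was called in any comparison. Their part in the differences of the ceh genes was not tested.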

How the data were processed

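Total RNA, 4 ug per sample, was made into biotin-labelled cRNA for Affymetrix arrays, per the labels' protocols. The authors deposited log2 signals, 1 for each probe set on each array. MAS5, RMA and Partek appear in the submitters' processing notes, with no versions or roles. The log base is read from the values (3.74 to 14.9), and background and detection were not assessed. Arrays had been brought to 1 scale, so a change common to all genes could not be seen. The 77 control probe sets were left out, and the other 22548 were tested with no signal filter. Of these, 20766 had 1 symbol, 887 several and 895 none, and members were matched to RefSeq by gene ID (74 of 74 probe sets). Probe set identifiers with _s_ or _x_ were taken as marks of possible cross-hybridisation. No columns of other samples were used.

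Limma 3.58.1 in R 4.3.3 (lmFit, eBayes) fitted all 9 arrays in 1 model with a coefficient per genotype and no block (6 residual and 3.92 prior degrees of freedom). The Benjamini-Hochberg adjustment ran over all 22548 probe sets, adjusted values under 0.05 were called, and the code was tested on simulated data. Differences are of log2 means, with the model's SE. Single summary values used a two-sided exact permutation test.

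The members, lists and tests were chosen with earlier results of these data known. Named were the ceh genes called in any comparison, the 6 with the smallest p in each, the 8 brightest and 4 dimmest, the brightest of each class and every member of classes with up to 4, those with several probe sets, called homeobox genes of other names with the 2 of smallest p per comparison, and ogt-1 and oga-1. Ceh-30, ceh-31, ceh-45, ceh-63, ceh-81, ceh-82, ceh-89, ceh-90 and nob-1 were added after their values were seen. The alternatives were the replicate block, a second quantile normalization, median centring, a signal filter, an intensity trend, the 2 genotypes alone, the control gap as covariate, other choices of probe set, and leaving out each array.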

Additional observations from a re-analysis of the deposited data

How the results depend on the processing

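Under the alternatives, the number of ceh genes called between the ogt-1 mutant and wild type was 2 with the replicate block (ceh-36 was added, adjusted p = 0.0132, and the third ceh-39 probe set had 0.0217), 0 with the 2 genotypes alone, 0 with the control gap as a covariate, 0 without the 3 arrays that hold the extremes (chosen after seeing the data), and 0 to 1 when an array was left out. It was 1 in the other settings and stayed 0 in all settings for the oga-1 mutant against wild type. Between the mutants it was 0 to 1 when an array was left out (ceh-17 without wild type array 1) and 1 with the mean of all probe sets of a gene. Of the homeobox genes with other names, the number called between the ogt-1 mutant and wild type was 0 with the 2 genotypes alone, 0 with the covariate and 0 to 1 without 1 array. Between the mutants it was 0 with an intensity trend, 0 with the covariate, 0 without the 3 arrays and 0 to 1 without 1 array. With fewer arrays the fit has fewer degrees of freedom; otherwise the cause was not tested. Over all probe sets the covariate left 49 calls of 584 between the ogt-1 mutant and wild type and 9 of 652 between the mutants, the replicate block raised 584 to 1034, and leaving out the 3 arrays left 262 and 188. Deviations of arrays with the same number correlated at 0.0052 to 0.322 (8 of 9 pairs over 0.1) and those with different numbers at -0.252 to 0.0713, and 7 of 9 arrays correlated best with their own number. This is a hint from the data, not from the labels, and the samples were not taken as paired. Of 2124 values of named genes under the alternatives, 2044 stayed on their side of the threshold and, where not called, moved by less than the SD within genotypes, 50 moved further, 27 lost a call, 3 gained one and 0 reversed a call. The sign turned in 113 of them, 67 of these without 1 array, and 0 of these had been called. Such a value of ceh-14 between the oga-1 mutant and wild type was 0.08 without oga-1 mutant array 1, and of ceh-2 between the ogt-1 mutant and wild type 0.30 without wild type array 1. The 3 arrays per genotype and the unknown background set the limits. The 95% interval of a difference, not adjusted for the number of probe sets, extended about 0.255 to each side for the middle gene. A larger difference could still go uncalled. The third ceh-39 probe set differed by 0.43 ± 0.11 (SE) between the ogt-1 mutant and wild type. Without the replicate block it was not called (limma adjusted p = 0.0876).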
